A study of Mus musculus with 12 samples.

Results

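Photo-isolation chemistry (PIC) reads the transcriptome of a chosen area of a tissue section. Reverse transcription primers that carry a photo-removable cage are applied to the whole section, and only the irradiated area gives amplifiable cDNA. The genes described here are 7 markers of hippocampal area CA2, namely Amigo2, Rgs14, Pcp4, Necab2, Ptpn5, Map3k15 and Avpr1b, taken by gene symbol from a count table of 32546 genes. All 7 were present in the table. Counts are of unique molecular identifiers (UMIs), each standing for 1 transcript read. The sections came from male ICR mice of 8 weeks, and CA1, CA3 and the dentate gyrus (DG) were irradiated. Each region had 4 replicates under each of 4 preparations. Fresh-frozen tissue was permeabilized either with 0.1 N HCl (5 min) or with TE (70 °C, 1 h). Tissue fixed with 4% paraformaldehyde was either frozen or embedded in paraffin before permeabilization with TE. The paper's protocol also post-fixes frozen and paraffin sections on the slide with 4% paraformaldehyde before permeabilization, and it does not except fresh-frozen ones. Barcodes told apart the 4 replicates, which shared 1 library per region and condition, so that within a condition region and library cannot be told apart. The description of the series names CA2 where the sample titles name CA3, and the region is called CA3 below, as in the titles.

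CA2 is a narrow band of pyramidal neurons between CA3 and CA1. It is known for weak long-term potentiation at its Schaffer collateral synapses, for its input from the entorhinal cortex and the hypothalamus, and for a part in social memory. Among the 7 genes, Avpr1b encodes a vasopressin receptor, Rgs14 a regulator of G protein and MAP kinase signalling that limits synaptic plasticity in CA2, Pcp4 a small calmodulin-binding protein, and Necab2 a neuronal calcium-binding protein. Ptpn5 encodes the tyrosine phosphatase STEP, Map3k15 a MAP kinase kinase kinase, and Amigo2 a cell adhesion molecule of the leucine-rich repeat family. Of these, Pcp4 is also well known in DG granule cells and in the thalamus, so it is not specific to CA2.

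By the GRCm38 annotation, Amigo2 (ENSMUSG00000048218) lies on chromosome 15 at 97244125-97247287, Rgs14 (ENSMUSG00000052087) on chromosome 13 at 55369732-55384687, Pcp4 (ENSMUSG00000090223) on chromosome 16 at 96467606-96525793 and Necab2 (ENSMUSG00000031837) on chromosome 8 at 119446719-119472640. Ptpn5 (ENSMUSG00000030854) lies on chromosome 7 at 47077795-47133684, Map3k15 (ENSMUSG00000031303) on chromosome X at 159988433-160123351 and Avpr1b (ENSMUSG00000026432) on chromosome 1 at 131599239-131612000. PIC counts transcripts near their 3′ ends, and the stated counting command sets neither strand nor the counting of reads that fall in more than 1 gene. This touches Map3k15 most, because its final exon, the 425 bases at 160122927-160123351, lies wholly inside an exon of Pdha1 on the other strand. The last exon of Pcp4 shares 191 bases with an annotated Igsf5 readthrough transcript on the same strand, and Amigo2 shares 58 bases near its 5′ end with Pced1b on the other strand.

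Amigo2, Necab2 and Pcp4 had the most alike regional profiles among the 5 genes abundant enough to compare, as described further on, so the 100 bases before their annotated starts are shown here. The promoter table used here, from RefSeq (GRCm38.p6), matched 4 of the 7 genes. The lines are read 5′ to 3′ on the strand of the gene, and capitals mark a GC box, the letters GGGCGG or their reverse complement CCGCCC.
Amigo2, chr15:97247288-97247387, minus strand: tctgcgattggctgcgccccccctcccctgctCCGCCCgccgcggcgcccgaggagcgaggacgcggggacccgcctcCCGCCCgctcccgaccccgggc
Necab2, chr8:119446619-119446718, plus strand: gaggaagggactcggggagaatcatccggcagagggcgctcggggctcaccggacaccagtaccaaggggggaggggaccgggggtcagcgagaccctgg
Pcp4, chr16:96467506-96467605, plus strand: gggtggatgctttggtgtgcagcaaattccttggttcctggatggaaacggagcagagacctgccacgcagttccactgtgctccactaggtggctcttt
The Amigo2 window held 2 GC boxes and had a GC content of 83%, against 70% for Necab2 and 55% for Pcp4, and the median of all 32851 windows of that length was 55%. A GC box on either strand was found in 24.7% of all windows. The TATA box TATAAA was found in 5.56% of windows and the cyclic AMP response element TGACGTCA in 1.15%, both strands searched, and neither stood in these 3. The GC box stood in the Amigo2 window alone of the 3.

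The total of a replicate ranged from 127253 to 933756 UMIs in HCl-permeabilized fresh-frozen sections, from 294445 to 1111804 in TE-permeabilized ones, from 52800 to 307145 in fixed frozen sections and from 35932 to 223055 in paraffin sections. Marker genes listed for each region, chosen with earlier results of these data known, were compared between the regions. In CA3 against CA1, all 6 CA1 markers tested (among them Wfs1 and Fibcd1) were lower in HCl, TE and fixed frozen sections. Of the CA3 pyramidal markers (among them the kainate receptor gene Grik4), 5 of 6, 4 of 7 and 4 of 5 were higher. The shares of all genes called in these conditions were 9.13%, 4.40% and 7.20%. In paraffin sections 2 of 5 CA1 markers were lower and 1 of 5 CA3 markers was higher, beside 2.36% of all genes. In CA3 against DG, all 7 DG granule cell markers (among them Prox1 and Dsp) were lower in the 3 frozen conditions and 3 of 7 in paraffin sections. Of the CA3 markers, 3 of 7, 4 of 7, 4 of 5 and 0 of 5 were higher in HCl, TE, fixed frozen and paraffin sections. Of the CA1 markers, 1 of 6, Man1a, was higher in CA3 in HCl and in TE sections. In fixed frozen sections 3 of 4 were lower, and in paraffin sections 0 of 5 were called. The shares of all genes called against DG were 8.99%, 7.91%, 9.27% and 3.21%. The median log2 fold change of the CA3 list in CA3 against CA1 was 1.59, 1.63, 2.74 and 1.18 in the 4 conditions in the order above, and that of the CA2 genes was -0.22, 0.11, 1.48 and 0.20, beside medians over all genes tested of 0.01, 0.01, 0.00 and 0.04. A call is an adjusted p under 0.05 in edgeR's quasi-likelihood test of 4 against 4 replicates, adjusted by Benjamini-Hochberg over all genes with at least 10 UMIs in the 8 replicates. In fixed frozen sections Amigo2 and Necab2, with 2 and 1 UMIs in CA1, reached that minimum through CA3 alone. The remaining CA2 genes behind the median of 1.48 were Ptpn5 (-0.16), Rgs14 (0.55) and Pcp4 (1.48).

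The 7 genes differed in how often they were found. Pcp4 and Ptpn5 had UMIs in all 48 replicates, with 6423 and 3697 UMIs in all. Rgs14 was found in 45 replicates with 983 UMIs, Amigo2 in 44 with 700 and Necab2 in 41 with 656. Avpr1b was found in 11 replicates with 23 UMIs, all of them in fresh-frozen sections. Map3k15 was found in 7 replicates with 1 UMI each, also only in fresh-frozen sections, which the overlap with Pdha1 (5249 UMIs over the table) bears on. The highest count of any of the 7 genes in a replicate was 442, far under the 4096 different UMIs that 6 bases can give.

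**Figure D1:**
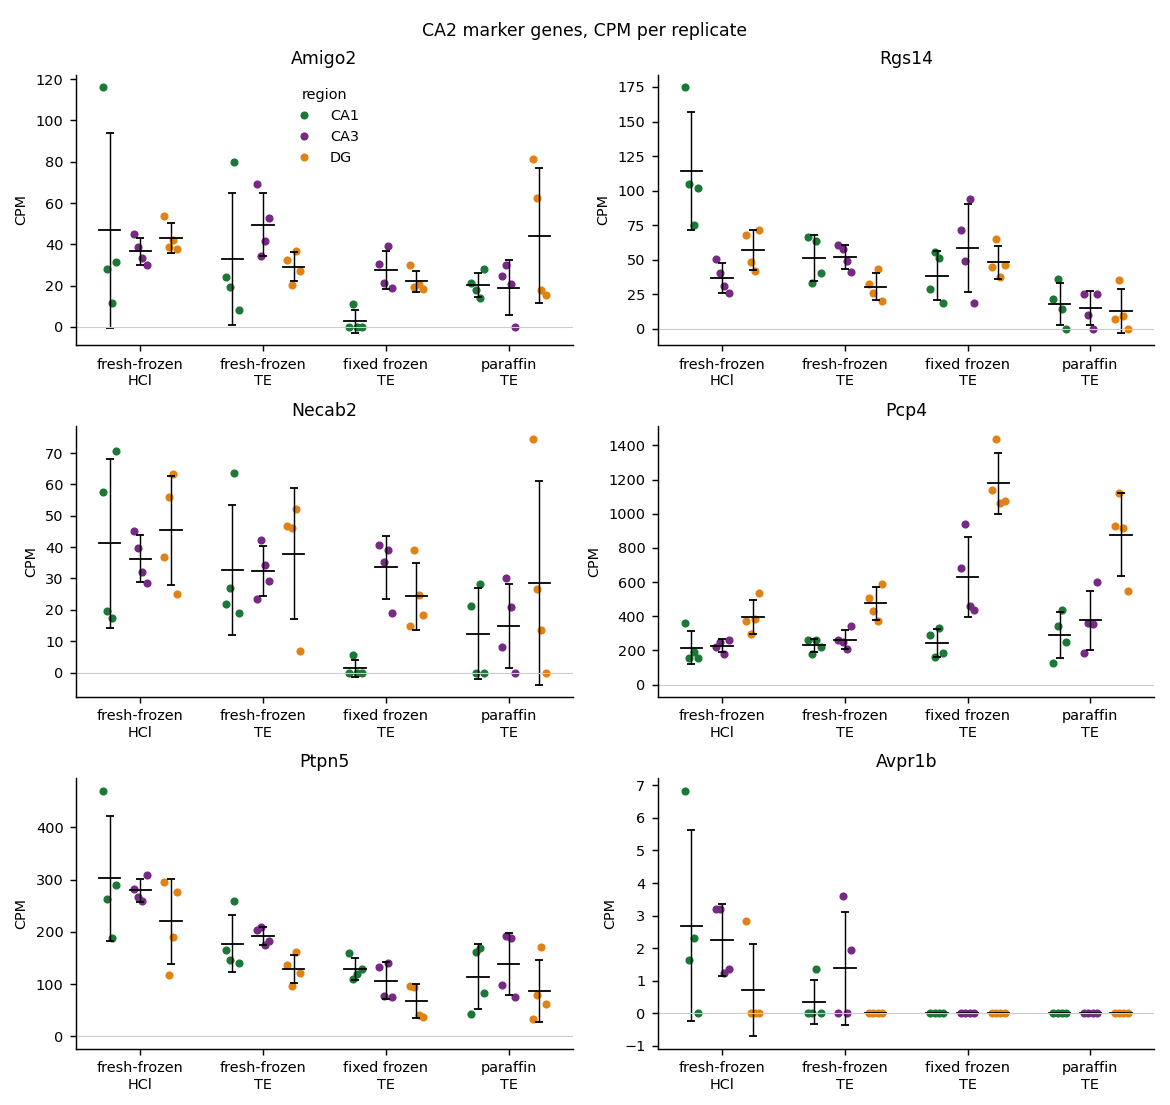
CPM (UMIs per 1000000 UMIs of the replicate) of 6 CA2 marker genes on linear axes, by condition and region; each point is a replicate, the horizontal line the mean of 4 and the bar 1 SD. For Amigo2 in CA1, 1 replicate stands high in HCl (116 CPM) and another in TE (79.7 CPM), and the mean of Pcp4 is highest in DG in every condition.

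In CA3 against CA1, the test called no CA2 gene higher in CA3 in fresh-frozen sections. Of the 6 genes tested in HCl-permeabilized sections, 1 was called, Rgs14, and it was lower in CA3, where 9.13% of all genes tested were called. Of the 5 tested in TE-permeabilized sections edgeR called 0, beside 4.40% of all genes, with 0 at an unadjusted p under 0.05 and 0 called by DESeq2, and without CA1 replicate 3 it called 1, Amigo2. In fixed frozen sections 2 of 5 were called, Necab2 and Pcp4, both higher in CA3, beside 7.20% of all genes, where Necab2 reached the minimum of 10 UMIs through CA3 alone, and in paraffin sections edgeR called 0 of 3, beside 2.36%, again with 0 at an unadjusted p under 0.05 and 0 by DESeq2. In irradiated areas of bulk tissue, fewer cells of a type and less RNA per cell cannot be told apart.

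Amigo2, the adhesion molecule gene often used to outline CA2, did not differ between CA3 and CA1 by the test in any condition. In HCl sections CA1 replicates 1 to 4 held 116, 27.9, 11.5 and 31.4 CPM, CA3 replicates 45.0, 38.6, 33.3 and 30.1 CPM and DG replicates 53.9, 38.8, 41.9 and 37.7 CPM. CA1 replicate 1 alone stood above all other replicates, and the 3 regions overlapped. CA3 over CA1 gave -0.37 ± 0.39 for Amigo2 on the log2 scale (SE, adjusted p = 0.637), and without CA1 replicate 1 the direction turned, at 0.91 (adjusted p = 0.112). Between CA1 and DG it was 0.21, and -1.08 without CA1 replicate 1 (adjusted p = 0.0361). In TE sections CA1 held 24.1, 19.6, 79.7 and 8.09 CPM, CA3 69.3, 34.2, 41.8 and 52.8 CPM and DG 32.5, 20.4, 36.9 and 27.2 CPM. Here every CA3 replicate lay above every CA1 replicate except replicate 3, which was the highest of all. CA3 over CA1 gave 0.47 ± 0.36 on the log2 scale (SE, adjusted p = 0.637). Leaving out CA1 replicate 3 gave 1.34 (adjusted p = 0.0171). In fixed frozen sections CA1 held 0, 11.1, 0 and 0 CPM, that is 2 UMIs in all, while CA3 held 30.6, 21.2, 39.1 and 18.9 CPM and DG 29.8, 19.5, 20.6 and 18.3 CPM. CA3 and CA1 did not overlap, but with 12 and 2 UMIs the log2 fold change of 2.38 ± 0.98 (SE) had an adjusted p of 0.144. The ratio of their pooled levels was 6.01, with a 95% counting interval (exact binomial, which covers counting error only) from 1.34 to 55.3. In paraffin sections the sums were 4, 7 and 24 UMIs in CA1, CA3 and DG.

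The 2 CA1 replicates with the high Amigo2 also stood highest of their library for Cacng5 and Sostdc1, which are named as CA2 markers. Cacng5, a calcium channel subunit gene from the list of other CA2 genes, had 71.1 CPM in CA1 replicate 1 of the HCl sections against 11.5, 9.20 and 39.3 CPM in replicates 2, 3 and 4. Sostdc1, which encodes a secreted BMP antagonist, had 69.8 CPM there against 8.20, 4.60 and 7.86 CPM. In TE sections CA1 replicate 3 had 40.5 CPM of Cacng5 against 17.2, 13.6 and 5.40 CPM, and 35.1 CPM of Sostdc1 against 11.5, 4.52 and 2.70 CPM. In each condition 1 replicate was thus the highest of its library in all 3 genes. Rgs14, Pcp4, Ptpn5 and Adora1 were also highest in that replicate of the HCl sections, and Necab2, Pcp4 and Ptpn5 in that of the TE sections. Necab2 was not so in HCl sections, with 70.7 CPM in CA1 replicate 4 against 57.5 CPM in replicate 1. Nor were Rgs14 and Adora1 in TE sections, with 66.6 and 261 CPM in replicate 1 against 63.5 and 244 CPM in replicate 3. Amigo2, Rgs14 and Necab2 together held 349, 152, 104 and 204 CPM in CA1 of the HCl sections and 113, 79.8, 207 and 67.5 CPM in CA1 of the TE sections. Beside this, the CA3 pyramidal list summed to 241, 202, 160 and 149 CPM and to 348, 304, 423 and 219 CPM in the same replicates, all below the lowest CA3 replicates of 525 and 741 CPM. The CA1 pyramidal list was lowest in the same 2 replicates, at 751 CPM against 888 to 1521 CPM in the other 3 of the HCl sections and at 910 CPM against 1285 to 1387 CPM in the other 3 of the TE sections. The choroid plexus list (Ttr, Folr1, Kl and Kcnj13) summed to 3212 CPM in CA1 replicate 1 of the HCl sections against 221 to 487 CPM in the other 3, and to 68.9 CPM in CA1 replicate 3 of the TE sections, where the other 3 had 36.7 to 356 CPM. The part of CA1, CA3 or choroid plexus tissue in these levels was not tested.

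Rgs14 was the one CA2 gene called between CA3 and CA1 in fresh-frozen sections, in the HCl sections only, and it was higher in CA1. In HCl sections CA1 held 175, 105, 74.8 and 102 CPM, CA3 50.4, 40.7, 30.9 and 26.0 CPM, and DG 68.1, 48.1, 41.9 and 71.2 CPM. Every CA1 replicate lay above all CA3 and all DG replicates. The log2 fold change of CA3 over CA1 was -1.57 ± 0.25 (SE), a 2.97-fold lower level (adjusted p = 5.3e-05), and CA1 was also higher than DG, by 1.10 ± 0.26 (SE, adjusted p = 0.00176). With each replicate thinned to the smallest total of its comparison, neither was called. The thinned values were -0.99 (adjusted p = 0.997) and 0.87 (adjusted p = 0.822). In TE sections CA1 held 66.6, 33.1, 63.5 and 40.5 CPM, CA3 60.4, 57.6, 49.3 and 41.0 CPM and DG 32.5, 25.6, 43.6 and 20.4 CPM. CA1 and CA3 overlapped there, with a log2 fold change of 0.02 (95% interval -0.45 to 0.48). CA1 and CA3 were the upper pair and DG the lowest in mean. The interaction, the log2 fold change of CA3 over CA1 in HCl minus that in TE sections, was -1.57 ± 0.35 (SE, adjusted p = 0.0201), and it was not called without replicate 1, 2 or 4 in all libraries (adjusted p = 0.0925, 0.132 and 0.101). That was 1 of the 6 CA2 genes tested, beside 0.516% of all genes. Rgs14 of the fixed frozen sections had 29.0, 55.3, 51.2 and 18.4 CPM in CA1, 71.3, 49.4, 93.9 and 18.9 CPM in CA3 and 44.7, 65.1, 37.1 and 45.9 CPM in DG, and the 3 regions overlapped. In paraffin sections it had 16 UMIs over the 12 replicates.

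Necab2 had a single UMI in CA1 of the fixed frozen sections, against 15 UMIs in CA3 and 22 in DG. It thus reached the minimum of 10 UMIs for a test only through the region where it was high, and the fitted values there are given as a description. CA1 held 0, 5.53, 0 and 0 CPM, while CA3 held 40.7, 35.3, 39.1 and 18.9 CPM and DG 14.9, 39.1, 24.7 and 18.3 CPM. CA1 overlapped neither region, whereas CA3 and DG overlapped each other. CA3 exceeded CA1 by 3.40 ± 1.04 on the log2 scale (SE, adjusted p = 0.0201), and the ratio of pooled levels was 15.0 with a counting interval from 2.31 to 633. For CA1 over DG it was -3.16 ± 1.03 on the log2 scale (SE, adjusted p = 0.0305), and the ratio of DG over CA1 was 11.7 with an interval from 1.89 to 483. Without CA1 replicate 3 or CA3 replicate 3 the first of these 2 calls was lost (adjusted p = 0.0828 and 0.0514), and the second was lost without any one of the CA1 replicates or without DG replicate 2 or 3 (adjusted p = 0.0529 to 0.157). In DESeq2 both comparisons gave Necab2 no adjusted p. In HCl sections Necab2 held 57.5, 19.7, 17.3 and 70.7 CPM in CA1, 45.0, 39.6, 32.1 and 28.7 CPM in CA3 and 36.9, 55.8, 63.5 and 25.1 CPM in DG. In TE sections it held 21.8, 27.1, 63.5 and 18.9 CPM in CA1, 23.6, 42.3, 34.3 and 29.3 CPM in CA3 and 46.8, 46.0, 52.0 and 6.79 CPM in DG. All regions overlapped in both, and the log2 fold changes of CA3 over CA1 were 0.13 and -0.03. The test of the difference between fixed frozen and TE fresh-frozen sections gave 3.80 ± 1.11 (SE) with an adjusted p of 0.117, so a difference of the CA3 over CA1 effect between these conditions was not shown.

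**Figure D2:**
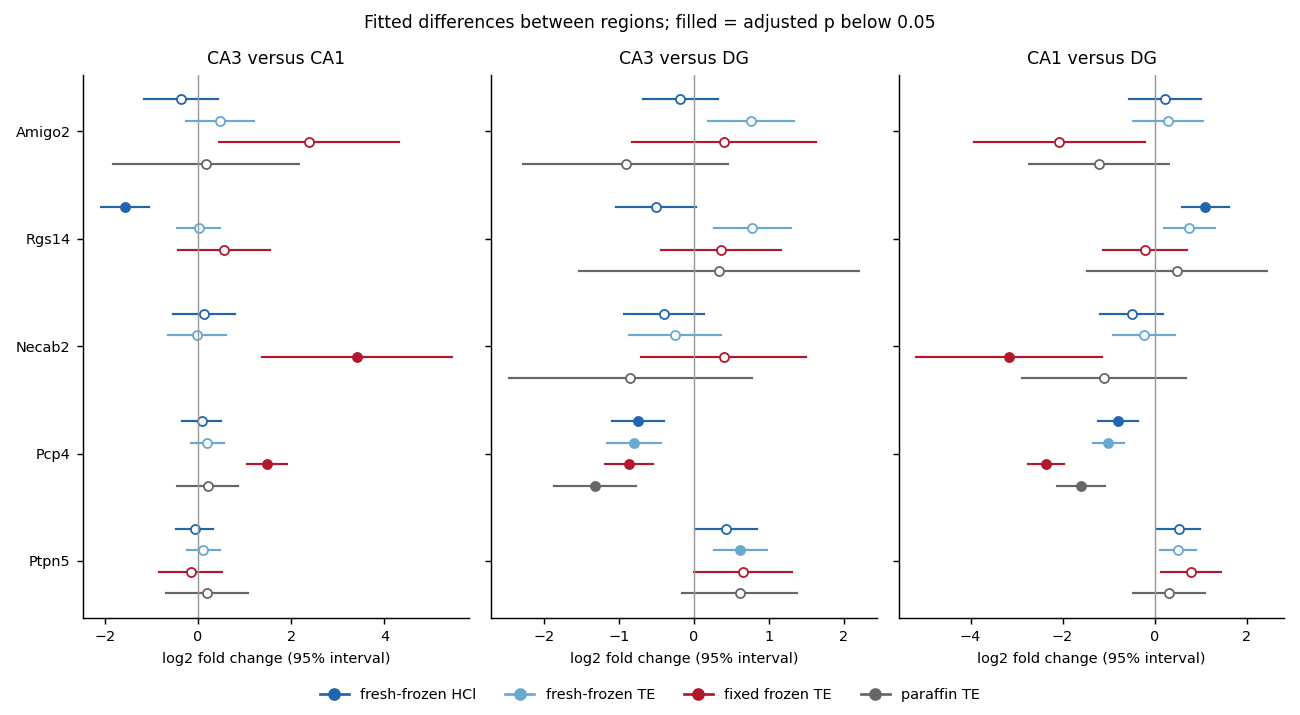
Log2 fold changes between regions for 5 CA2 marker genes from edgeR, with the 95% interval as a line, coloured by condition; filled points have an adjusted p under 0.05, and a gene with fewer than 10 UMIs in a comparison has no point. Pcp4 lies left of 0 against DG in all 8 comparisons, and in CA3 versus CA1 the filled points are Rgs14 in HCl on the left and Necab2 and Pcp4 in fixed frozen sections on the right.

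Pcp4 was highest in DG in every condition. In HCl sections it held 360, 152, 192 and 157 CPM in CA1, 219, 252, 181 and 261 CPM in CA3 and 369, 296, 385 and 536 CPM in DG, so that DG lay above all CA3 replicates. In TE sections it held 258, 179, 263 and 219 CPM in CA1, 259, 246, 206 and 342 CPM in CA3 and 508, 428, 374 and 591 CPM in DG. The levels of CA1 and CA3 overlapped in both, and their log2 fold changes were 0.08 (95% interval -0.34 to 0.49) and 0.20 (-0.16 to 0.56). In fixed frozen sections the regions were separate, with 290, 160, 332 and 184 CPM in CA1, 682, 939, 462 and 436 CPM in CA3 and 1141, 1439, 1060 and 1073 CPM in DG. There CA3 was 2.78-fold higher than CA1 (log2 fold change 1.48 ± 0.22, SE, adjusted p = 4.12e-09). In paraffin sections it held 128, 342, 438 and 250 CPM in CA1, 182, 363, 356 and 601 CPM in CA3 and 929, 1120, 919 and 545 CPM in DG.

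Against DG, Pcp4 was the CA2 gene called in all 4 conditions at full depth. The log2 fold changes of Pcp4 in CA3 over DG were -0.74, -0.80, -0.86 and -1.32 in HCl, TE, fixed frozen and paraffin sections (adjusted p = 0.0043, 0.00298, 1.11e-05 and 0.000748). Of 5 CA2 genes tested in CA3 against DG, 1, 2, 1 and 1 were called in these conditions, beside 8.99%, 7.91%, 9.27% and 3.21% of all genes. In CA1 over DG they were -0.80, -1.01, -2.37 and -1.60 (adjusted p = 0.00581, 2.62e-05, 2.91e-29 and 6.75e-07), beside calls of 2, 1, 2 and 1 of 5 CA2 genes and of 17.0%, 10.1%, 8.14% and 3.29% of all genes. With each replicate thinned to the smallest total of its comparison, Pcp4 was not called in CA3 over DG of HCl (-0.79, adjusted p = 0.0800), fixed frozen (-0.46, adjusted p = 0.695) and paraffin sections (-1.14, adjusted p = 0.252), nor in CA1 over DG of HCl sections (-0.48, adjusted p = 0.835). The CA3 over CA1 difference of Pcp4 was larger in fixed frozen than in TE fresh-frozen sections by 1.30 ± 0.30 (SE, interaction adjusted p = 0.0111). That was the 1 call among 5 CA2 genes, beside 0.335% of all genes, and in the paraffin sections the interaction called 0 of 5, beside 0.433%, with 0 at an unadjusted p under 0.05 and 0 by DESeq2. Without replicate 1 or without replicate 2 in all libraries, the interaction of Pcp4 was no longer called (adjusted p = 0.0865 and 0.605).

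Markers of the thalamus, a neighbouring tissue that also expresses Pcp4, were called higher in CA3 than in CA1 in all 4 conditions. Pcp4 was called between these regions in fixed frozen sections alone. The shares of all genes called in CA3 against CA1 were 9.13%, 4.40%, 7.20% and 2.36% in HCl, TE, fixed frozen and paraffin sections. The thalamic list (Prkcd, Tcf7l2, Tnnt1 and Rora) summed to 18.4 to 102 CPM in CA1, 290 to 614 CPM in CA3 and 450 to 674 CPM in DG in fixed frozen sections. Its 3 tested genes were all higher in CA3 than in CA1, among them the transcription factor gene Tcf7l2 by 1.86 ± 0.46 on the log2 scale (SE). The kinase gene Prkcd had 59 UMIs in CA3 (pooled level 140.3 CPM) and 0 in CA1, which allow up to 7.12 CPM. In HCl and TE fresh-frozen sections the list summed to 126 to 257 CPM in CA1 and to 333 to 504 CPM in CA3. There 3 of 4 and 2 of 4 genes were higher in CA3, and Pcp4 did not differ between the 2 regions by the test. The DG means of the list were 413 ± 102 and 541 ± 74.4 CPM, beside CA3 means of 402 ± 66.2 and 410 ± 71.8 CPM (SD, n = 4). In paraffin sections the means of the list were 154 ± 60.8 CPM in CA1, 427 ± 152 CPM in CA3 and 664 ± 86.1 CPM in DG (SD, n = 4). There 2 of 3 tested genes were higher in CA3, and Pcp4 gave 0.20 on the log2 scale, which was not called. The DG granule cell list summed to 111 to 205 CPM in CA1 and 75.8 to 254 CPM in CA3 in fixed frozen sections, ranges that overlapped, against 1385 to 1556 CPM in DG. Of its 4 tested genes, C1ql2 was higher and Lct lower in CA3. The choroid plexus list summed to 0 to 42.6 CPM in CA1 and 198 to 1996 CPM in CA3. Of the oligodendrocyte markers, Mbp, the myelin basic protein gene, held 1275 to 3809 CPM in CA1 and 455 to 1143 CPM in CA3, and Mbp, Mog, Mag and Mobp were all lower in CA3. The part of these tissues in the differences of Pcp4 and Necab2 was not tested.

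Ptpn5, the phosphatase gene, had higher means in CA1 and in CA3 than in DG in every condition, and 1 of these 8 differences, in CA3 of the TE sections, was called. In HCl sections it held 471, 262, 189 and 291 CPM in CA1, 282, 268, 259 and 309 CPM in CA3 and 295, 118, 190 and 276 CPM in DG. In TE sections it held 165, 146, 259 and 140 CPM in CA1, 203, 210, 175 and 182 CPM in CA3 and 136, 97.1, 161 and 122 CPM in DG, so that CA3 lay above DG in every replicate. CA3 was higher than DG there by 0.62 ± 0.17 (SE, adjusted p = 0.0203), which was not called without CA3 replicate 2 (adjusted p = 0.0627) or DG replicate 2 (0.132). The point estimates of CA3 over DG were 0.43, 0.66 and 0.61 in the other 3 conditions, where the test did not call it. CA3 and CA1 differed by -0.07, 0.11, -0.16 and 0.20 in the 4 conditions, with 95% intervals of -0.47 to 0.32 and -0.25 to 0.48 in the fresh-frozen sections and of -0.84 to 0.52 and -0.68 to 1.08 in the fixed ones.

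Deviations of same-numbered replicates correlated by 0.18 or more in all 3 pairs of TE fresh-frozen libraries and in CA3 and DG of the HCl sections. In CA1 and CA3 of the TE sections, however, replicates of different numbers reached 0.25, and 2 of 4 correlated best with their own number. Pairing in the other pairs of libraries was not excluded. With the replicate number as a block, CA3 against DG in HCl sections called 2 of 5 CA2 genes in place of 1, as Ptpn5 was higher in CA3 (log2 fold change 0.46, adjusted p = 0.00157), beside 17.3% of all genes. In TE sections it called 4 of 5 in place of 2, as Amigo2 (0.75, adjusted p = 0.0153) and Rgs14 (0.79, adjusted p = 0.00685) were higher in CA3, beside 13.5% of all genes. CA1 against DG in TE sections called 3 of 5 in place of 1, as Rgs14 (0.73, adjusted p = 0.0158) and Ptpn5 (0.50, adjusted p = 0.00341) were higher in CA1, beside 16.1%. The block called no CA2 gene between CA3 and CA1 in TE sections. In the fit without the block, leaving out 1 replicate also added calls against DG. In TE sections these were Amigo2 in CA3 without CA3 replicate 2 (0.94, adjusted p = 0.0453), Rgs14 in CA3 without DG replicate 3 (1.00, adjusted p = 0.0296) and Rgs14 in CA1 without CA1 replicate 2 (0.92, adjusted p = 0.0276) or DG replicate 3 (0.97, adjusted p = 0.0411). In HCl sections it was Ptpn5 in CA1 without CA1 replicate 3 (0.72, adjusted p = 0.0414) or DG replicate 1 (0.72, adjusted p = 0.0383).

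Avpr1b, the receptor gene, was too scarce for a comparison in most conditions. In HCl sections CA1 held 8 UMIs, CA3 8 and DG 1, and in TE sections CA1 held 1, CA3 5 and DG 0, so that its few UMIs lay mostly in the CA regions. The ratio over DG in HCl sections was 6.93 for CA1 (counting interval 0.929 to 307) and 4.75 for CA3 (0.637 to 211), and both intervals held 1. In CA1 of the HCl sections, 5 of the 8 UMIs came from replicate 1. Between CA3 and CA1 in HCl sections Avpr1b gave -0.45 ± 0.77 on the log2 scale (SE, adjusted p = 0.794). It was not detected in the fixed frozen and paraffin sections, where 0 UMIs allow up to 3 UMIs in a region, that is 7.12 and 7.14 CPM in CA1 and CA3 of the fixed frozen sections and 14.3 and 9.75 CPM in the paraffin sections. Its pooled level in CA1 and CA3 of the fresh-frozen sections was 0.378 to 3.42 CPM, below these limits, so a loss was not detectable at this depth. Map3k15 had 2, 2 and 1 UMIs in CA1, CA3 and DG of the HCl sections and 0, 1 and 1 in the TE sections.

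A second list held 12 other genes known for higher levels in CA2. In CA3 against CA1, 2 of 11 tested genes were called in HCl sections (Adora1 higher, Nr3c2 lower), 1 of 11 in TE sections (Stard5 higher), 1 of 4 in fixed frozen sections (Adora1 higher) and 0 of 2 in paraffin sections, beside 9.13%, 4.40%, 7.20% and 2.36% of all genes. Summed over the list, CA1, CA3 and DG had means of 519 ± 169, 594 ± 77.6 and 412 ± 32.1 CPM (SD, n = 4) in HCl sections, 508 ± 129, 636 ± 101 and 563 ± 84.6 CPM in TE sections and 477 ± 101, 780 ± 115 and 468 ± 38.5 CPM in fixed frozen sections. CA3 was thus the highest in mean in these 3, and in fixed frozen sections its replicates overlapped neither other region. Adora1 alone held 383, 412, 360 and 313 CPM of the CA3 sums of 664, 647, 569 and 495 CPM in HCl sections. Its part in fixed frozen sections was 530, 480, 548 and 758 CPM of 784, 649, 759 and 928 CPM. The order of the sums therefore need not hold for the other genes of the list. The paraffin means were 363 ± 142, 373 ± 77.7 and 374 ± 90.3 CPM. Adora1, the adenosine A1 receptor gene, was the only one called in 2 conditions. In HCl sections Adora1 held 234, 200, 229 and 110 CPM in CA1 and 383, 412, 360 and 313 CPM in CA3, without overlap, a difference of 0.89 ± 0.17 on the log2 scale (SE, adjusted p = 0.000502). Fixed frozen sections held 464, 276, 307 and 277 CPM in CA1 and 530, 480, 548 and 758 CPM in CA3, also without overlap, a difference of 0.82 ± 0.21 (SE, adjusted p = 0.00326). Adora1 was also higher in CA3 than in DG in the 3 frozen conditions, by 1.05, 0.69 and 1.28. Cacng5 and Sostdc1, the first 2 genes of that list, had log2 fold changes of CA3 over CA1 of 0.01 and -0.41 in HCl sections and of 0.60 and 0.95 in TE sections, and none was called. Cacng5 had 0 UMIs in CA1, 6 in CA3 and 16 in DG of the fixed frozen sections, and the 0 UMIs allow up to 7.12 CPM in CA1, against a pooled level of 20.2 CPM in DG.

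Of the 13 relatives of the members that the table holds, such as other adhesion molecules of the Amigo family, 4 of 9 tested genes were called in CA3 against CA1 in HCl sections (Necab3, Amigo1 and Map3k5 higher, Necab1 lower), 1 of 9 in TE sections (Map3k5) and none of 6 and of 4 in the fixed conditions, beside 9.13%, 4.40%, 7.20% and 2.36% of all genes. Map3k5, which encodes the stress kinase ASK1, was higher in CA3 in both fresh-frozen conditions. In HCl sections Map3k5 held 41.0, 26.2, 25.3 and 15.7 CPM in CA1 and 62.2, 61.0, 54.3 and 52.0 CPM in CA3, and in TE sections 32.2, 40.7, 35.1 and 16.2 CPM in CA1 and 60.4, 66.6, 65.4 and 80.1 CPM in CA3. CA1 and CA3 did not overlap in either, and the log2 fold changes were 1.01 ± 0.25 and 1.07 ± 0.23 (SE, adjusted p = 0.00773 and 0.00403). Map3k5 was not called against DG, where the CA3 over DG values were 0.65 and 0.67. Amigo1 had 1.15 ± 0.26 (SE, adjusted p = 0.00279) in HCl and 0.21 in TE sections.

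The other lists in CA3 against CA1 were as follows. Of the DG granule cell genes, 3 of 7 were called in HCl sections (Prox1 and Dsp higher, Lct lower), beside 9.13% of all genes. In TE sections it was 1 of 7 (Lct, lower), beside 4.40%. Summed over the HCl sections that list had means of 338 ± 147 CPM in CA3 and 225 ± 35.8 CPM in CA1 (SD, n = 4). In HCl sections 1 of 6 interneuron genes (Gad1, lower) was called, 3 of 5 astrocyte genes (Gfap and Aqp4 higher, Gja1 lower), none of 5 microglia and of 4 endothelial genes, and 2 of 3 choroid plexus genes (Kl and Ttr, lower). In TE sections 1 interneuron gene (Pvalb, lower) and 1 choroid plexus gene (Ttr, higher) were called, and no astrocyte, oligodendrocyte, microglia or endothelial gene. The fixed frozen sections gave 1 call among 6 interneuron genes (Sst, lower), beside 7.20% of all genes. In paraffin sections, among these lists, Ttr alone was called, higher in CA3, beside 2.36% of all genes. Ttr, the transthyretin gene of the choroid plexus, was thus lower in CA3 in HCl sections (log2 fold change -1.98) and higher in TE (2.39) and paraffin sections (2.16). In fixed frozen sections it had 3 UMIs in CA1 and 290 in CA3.

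**Figure D3:**
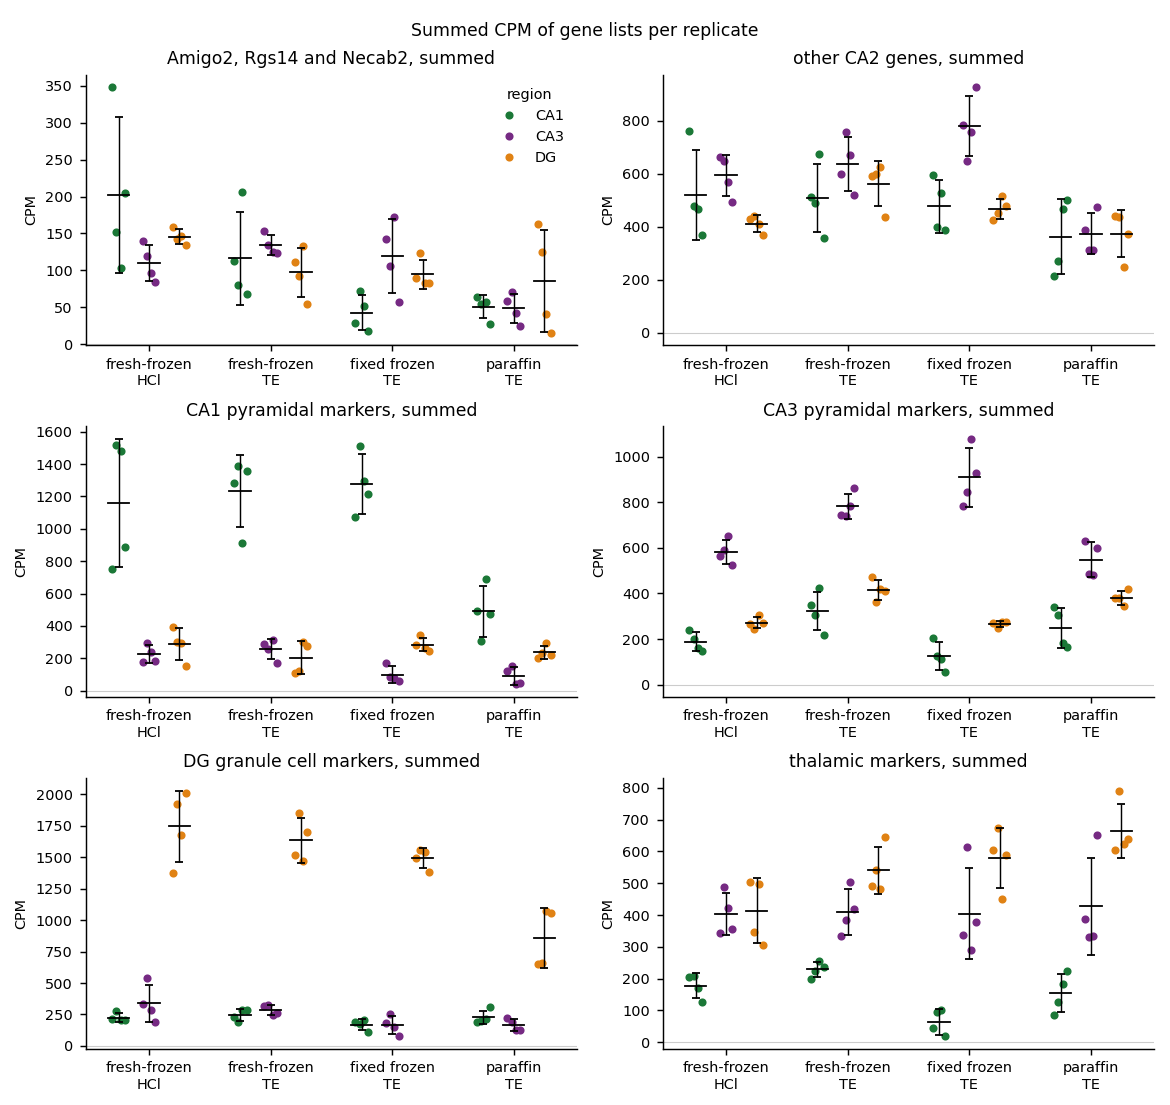
Summed CPM of 6 gene lists on linear axes, by condition and region; each point is a replicate, the horizontal line the mean of 4 and the bar 1 SD. The CA1, CA3 and DG lists each stand highest in their own region in every condition, while Amigo2, Rgs14 and Necab2 together overlap between CA1 and CA3 in both fresh-frozen conditions and in the fixed conditions.

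The order of the regions differed between sets of genes. The 7 CA2 genes summed were highest in mean in DG in every condition, at 763 ± 165, 702 ± 72.0, 1340 ± 221 and 1051 ± 300.2 CPM (SD, n = 4), and Pcp4 held the most UMIs of the sum there. The CA3 list was highest in CA3 in every condition, at 525 to 651, 741 to 862, 784 to 1080 and 481 to 629 CPM, without overlap with CA1 or DG. Amigo2, Rgs14 and Necab2 together had means of 202 ± 106, 110 ± 24.7 and 146 ± 10.4 CPM (SD, n = 4) in CA1, CA3 and DG of the HCl sections and of 117 ± 63.0, 134 ± 13.7 and 97.7 ± 33.3 CPM in the TE sections. Their means were, in fixed frozen sections, 42.6 ± 23.8, 119 ± 49.8 and 94.6 ± 19.7 CPM, and in paraffin sections 50.6 ± 15.8, 48.8 ± 19.7 and 85.8 ± 69.3 CPM. CA3 was thus the lowest of the 3 in mean in HCl and paraffin sections and the highest in TE and fixed frozen sections. Neighbours in these orders overlapped between replicates, except CA1 and DG in fixed frozen sections. Whether the irradiated CA3 area held part of CA2, or the CA1 area held part of it, was not tested.

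Across the 12 libraries, with mean log2(CPM + 10) centred within each condition, Amigo2 and Necab2 had the most alike profiles (Pearson r = 0.90), followed among the positive values by Pcp4 with Necab2 (0.76) and with Amigo2 (0.72). Rgs14 had r of -0.16 to 0.20 with each of the other 4 genes, and Ptpn5 ran opposite to Pcp4 (-0.90). Avpr1b and Map3k15 were too scarce to enter. Without the fixed frozen sections, over 9 libraries, these 3 values were 0.67, 0.91 and 0.54. The libraries of a condition share its depth and treatment. The 5 genes most like the mean of the members, of 9138 compared, were Nog (0.93), Dcun1d3 (0.93), Lgi2 (0.93), Bsdc1 (0.91) and Ptbp2 (0.91). That mean followed Amigo2 and Necab2 most (r = 0.89 each), then Pcp4 (0.55) and Rgs14 (0.54), and ran against Ptpn5 (-0.30). It therefore does not stand for all members alike. Amigo2 and Necab2 had 2 and 1 UMIs in CA1 of the fixed frozen sections. Nog, which encodes the BMP antagonist noggin, had means of 8.62, 42.8 and 33.4 CPM in CA1, CA3 and DG of the fixed frozen sections and of 16.6, 18.2 and 19.5 CPM in the HCl sections. With 1 CPM in place of 10 CPM added before the logarithm, 1 of the 5 genes, Bsdc1, was among the first 5.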

How the data were processed

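PIC libraries of 12 region and condition groups were analysed, with 4 barcoded replicates in each. The deposited values are UMI counts without normalization, which the authors made with UMI-tools 1.0.0 (barcode and UMI, 6 bases each), Trim Galore!, HISAT2 2.1.0 on GRCm38 and featureCounts 1.6.4, counting each UMI of a gene once per barcode. The release of their annotation is not given in the sources used here. A table of barcodes was not used. No 2 replicates held identical counts, and nothing used here says which mouse gave which replicate, so p-values measure the spread between these samples.

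Regions were compared within each condition by the quasi-likelihood test of edgeR 4.0.16 (R 4.3.3) with TMM normalization on 4 against 4 replicates. Genes with at least 10 UMIs in the replicates of a fit were tested, and p-values were adjusted by Benjamini-Hochberg over all of them. Interaction terms compared the CA3 over CA1 effect of each other condition with that of the fresh-frozen TE sections. A log2 fold change is of the first region named over the second. CPM were UMIs per 1000000 UMIs of a replicate, and intervals have a confidence of 95%. Counting intervals are exact (Clopper-Pearson). A count of 0 was given an upper limit of 3 UMIs. The edgeR fit of CA3 against CA1 was tested on simulated counts in each condition, and the other fits were not. Alternatives were DESeq2 1.42.0, its size factors in edgeR, no filter or filterByExpr, all 3 regions in a fit, thinning of each replicate to the smallest total, the replicate number as a block, and leaving out each replicate.

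Whether replicate numbers pair the samples was read from the correlation, over genes averaging 5 or more UMIs in each of both libraries, of deviations from the library mean of log2(CPM + 10). Same-numbered replicates correlated by 0.18 to 0.338 in the 3 pairs of TE fresh-frozen libraries and by 0.228 to 0.433 in CA3 and DG of the HCl sections, all over 0.1, which was taken as pairing. In the other 8 pairs of libraries at least 1 value was under 0.1. The cut did not weigh these values against replicates of different numbers. Those reached 0.25 in CA1 and CA3 of the TE sections, above the lowest same-numbered value of 0.18. In CA1 and DG of the paraffin sections same-numbered replicates correlated by 0.0725 to 0.286 and others by at most 0.0208. Pairing in those 8 pairs was therefore not excluded. The labels give no source of pairing.

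Genes named in the text are the 7 members, the first 2 genes of each marker list, genes of the lists of other CA2 genes and relatives called between CA3 and CA1 in at least 2 conditions, and the 5 genes most alike in profile. Further list genes are named where a count of called genes was 5 or fewer, which was decided after their values were seen, as was the choice of promoters shown. The members and lists were chosen with earlier results of these data known. The result of 1 oligodendrocyte marker is not reported here. Gene positions came from GENCODE M21 and promoter sequences from RefSeq. Python 3.11.15 with pandas 2.3.3 and matplotlib 3.10.9 was used for tables and figures.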

Additional observations from a re-analysis of the deposited data

Results flagged for a closer look

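Necab2 in DG of the TE fresh-frozen sections had 6.79 CPM in replicate 4, from 2 UMIs, against 46.0 to 52.0 CPM in the other 3, a gap beyond the 95% critical value of Dixon's test. Of the 51 groups of 4 replicates with at least 10 UMIs of a member this was the only such replicate, and chance alone gives about 1 in 20 groups.

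Rgs14 was called between permeabilizations, as the log2 fold change of CA3 over CA1 was lower in HCl than in TE fresh-frozen sections (interaction -1.57, adjusted p = 0.0201 in edgeR). Rgs14 was no longer called without replicate 1, 2 or 4 in all libraries (adjusted p = 0.0925, 0.132 and 0.101 in edgeR). Its CA1 mean was 114 ± 42.8 CPM in HCl and 50.9 ± 16.6 CPM in TE sections (SD, n = 4), and its CA3 mean 37.0 ± 10.8 and 52.1 ± 8.74 CPM. Pcp4 was called between fixed and fresh-frozen sections with TE, as its log2 fold change of CA3 over CA1 was higher in fixed frozen sections (interaction 1.30, adjusted p = 0.0111 in edgeR). Pcp4 was no longer called without replicate 1 or 2 in all libraries (adjusted p = 0.0865 and 0.605 in edgeR). Its CA1 means were 242 ± 82.5 CPM in fixed frozen and 230 ± 39.3 CPM in fresh-frozen sections, and its CA3 means 630 ± 234 and 263 ± 57.1 CPM. Each group of 4 replicates is 1 library, so that library and condition cannot be told apart, and the cause was not tested.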

How the results depend on the processing

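Of 954 single values of a member under an alternative, 916 stayed on their side of the threshold, 37 of them with the opposite sign and no call, 23 lost a call, 14 gained one and 1 turned its direction with a call. This was Amigo2 in CA1 over DG of the HCl sections, at a log2 fold change of -1.08 without CA1 replicate 1, where leaving out 1 replicate gave -1.08 to 0.65. The number of members called in CA3 against CA1 of the HCl sections was 0 after thinning. In fixed frozen sections it was 1 with DESeq2, with filterByExpr and after thinning. In CA3 against DG it was 2 in HCl and 4 in TE sections with the replicate block, and 0, 1, 0 and 0 after thinning in the 4 conditions. In CA1 against DG it was 3 in TE sections with the replicate block and 0 in HCl sections after thinning, and in fixed frozen sections 1 with DESeq2, without a filter, with filterByExpr and after thinning. Leaving out 1 replicate gave 0 to 1 members called in CA3 against CA1 of TE sections and 1 to 2 of fixed frozen sections, 1 to 3 in CA3 against DG of TE sections, 1 to 2 in CA1 against DG of TE and of fixed frozen sections, and 0 to 1 in the interactions of HCl and of fixed frozen sections. The replicate block also added Ptpn5 in CA1 against DG of HCl sections, and beyond these it changed no call of a member. Of the 5 most alike genes, 1 was shared with a pseudocount of 1 CPM. The cause of these changes was not tested, except that thinning leaves fewer UMIs.

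In CA3 against CA1, edgeR called 1428, 640, 597 and 177 genes in HCl, TE, fixed frozen and paraffin sections. DESeq2 called 292 and 89 in the fixed ones, the block 1222 in TE sections, and thinning left 41, 298, 180 and 74. In CA3 against DG, 1363, 1138, 867 and 301 were called, with DESeq2 482 and 149 in the fixed ones, with the block 2619 and 1946 in the fresh-frozen ones, and after thinning 229, 373, 77 and 40. In CA1 against DG, 2526, 1420, 764 and 295 were called, with DESeq2 1621 in HCl and 385 and 110 in the fixed ones, with filterByExpr 501 and 142 in the fixed ones, with the block 2262 in TE sections, and after thinning 122, 634, 81 and 45. The interactions called 89, 50 and 65 genes in HCl, fixed frozen and paraffin sections, with the block 454 in HCl and 92 in fixed frozen sections, with DESeq2 93 in fixed frozen and without a filter 32 in paraffin sections. All other counts of these settings, leaving out replicates aside, stayed within 1.5 times. The median log2 fold change of all genes ran from -0.18 to 0.08 with TMM and from -0.06 to 0.03 with size factors of DESeq2. It was -0.11 and -0.18 in CA1 over DG of fixed frozen and paraffin sections, where Pcp4 gave -2.37 and -1.60. Depth limits Avpr1b and Map3k15 in all conditions and Amigo2, Rgs14 and Necab2 in the fixed ones, where few UMIs stand behind each value.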
